A study of Drosophila melanogaster with 8 samples.

Results

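The genes described here are 9 genes of the Drosophila septate junction: Nrx-IV, cora, vari, sinu, kune, Mcr, dlg1, Atpalpha and nrv2. They are 9 of the 13922 protein-coding genes on the 6 main chromosome arms (X, 4 and both arms of 2 and 3). They were chosen by name, and every peak summit inside a gene or within 5000 bp of it was assigned to that gene, on the Release 6 (dm6) assembly. The septate junction is the occluding junction of insect epithelia, a ladder of septa below the adherens junction that seals the space between cells. In the embryonic airway (the trachea) it also has a role in tube length, through the secretion of enzymes that modify the luminal chitin. Its core is a large complex of transmembrane proteins, cytoplasmic adaptors, claudins and the sodium pump.

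The peaks came from chromatin immunoprecipitation with sequencing (ChIP-seq) with a goat antibody to green fluorescent protein (GFP), on whole Drosophila melanogaster embryos given as stage 11 to 15 in the sample characteristics and up to stage 16 in the protocol. The protocol names a fusion of GFP with Ribbon (Rib), a BTB-domain transcription factor, switched on through GAL4 under the btl or the trh driver. The sample titles and genotypes, btl-GAL4::UAS-GFP and trh-GAL4::UAS-GFP, name GFP without Rib, and if they were right no value below would concern Rib. Both drivers act in the trachea, and trh also in other placodes such as the salivary gland, so a fusion made under them is expressed in part of the embryo only, in addition to the native gene. The 5 immunoprecipitated samples (3 btl, 2 trh) and 3 inputs (2 btl, 1 trh) gave 3 lists with summits. The btl list pools btl replicates 1 and 2 (8693 summits), the trh list pools trh replicates 1 and 2 (3210 summits), and the third holds btl replicate 3 alone (17149 summits in 10205 regions). Replicate 3 had its own library kit and sequencing centre. A further list, called highest confidence by its name, holds 2198 regions without summits. Embryos lacking a GFP fusion were not analysed here, no list gives values for replicates 1 and 2 apart, and depth is unknown, so nothing below has a replicate error. None of the differences below was tested. No DNA or protein sequence of these genes was used here.

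Peaks were present at most of the junction genes, but not at the claudins. In the btl list 7 of the 9 genes had a summit, where 60.9% of all protein-coding genes did. In the trh list 4 of 9 had a summit, where 29.1% of all genes did, and in btl replicate 3 it was 7 of 9, where 65.7% did. The same 7 genes had a summit in the btl list and in replicate 3, and vari, dlg1, Atpalpha and nrv2 had one in all 3 lists, as 25.0% of all genes did. The junction genes are long, with a median length of 9.09 kb against 2.16 kb for all protein-coding genes, and a longer window holds more summits by length alone. Among the 2108 protein-coding genes of at least that length, 79.3% had a btl summit, 53.7% a trh summit and 81.4% a replicate 3 summit. The counts at the 9 genes are close to these shares, although sinu, kune, Mcr and vari are shorter than that length. Nrx-IV, cora, dlg1, Atpalpha and nrv2 reach it. All of the latter had a summit in the btl list and in replicate 3, and all but Nrx-IV and cora had one in the trh list.

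Per length, the windows of the 9 genes held more summits than the arms in all 3 lists, and part of this was common to gene windows. The btl list had 18 summits in the 212 kb of windows, or 0.848 per 10 kb, against 0.651 per 10 kb over the arms. The trh list had 9 summits, or 0.424 against 0.240 per 10 kb. Replicate 3 had 55 summits in 29 regions, or 2.59 against 1.28 per 10 kb. Over the summed windows of all protein-coding genes, in which overlapping windows count a summit again, the densities were 0.786 per 10 kb (btl), 0.279 (trh) and 1.55 (replicate 3). The btl value at the 9 genes was close to that of all gene windows. Of those 29 regions, 17 had several summits, compared with 35.1% of all replicate 3 regions. Atpalpha, the longest gene but dlg1, held 6 of the 18 btl summits.

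**Figure D1:**
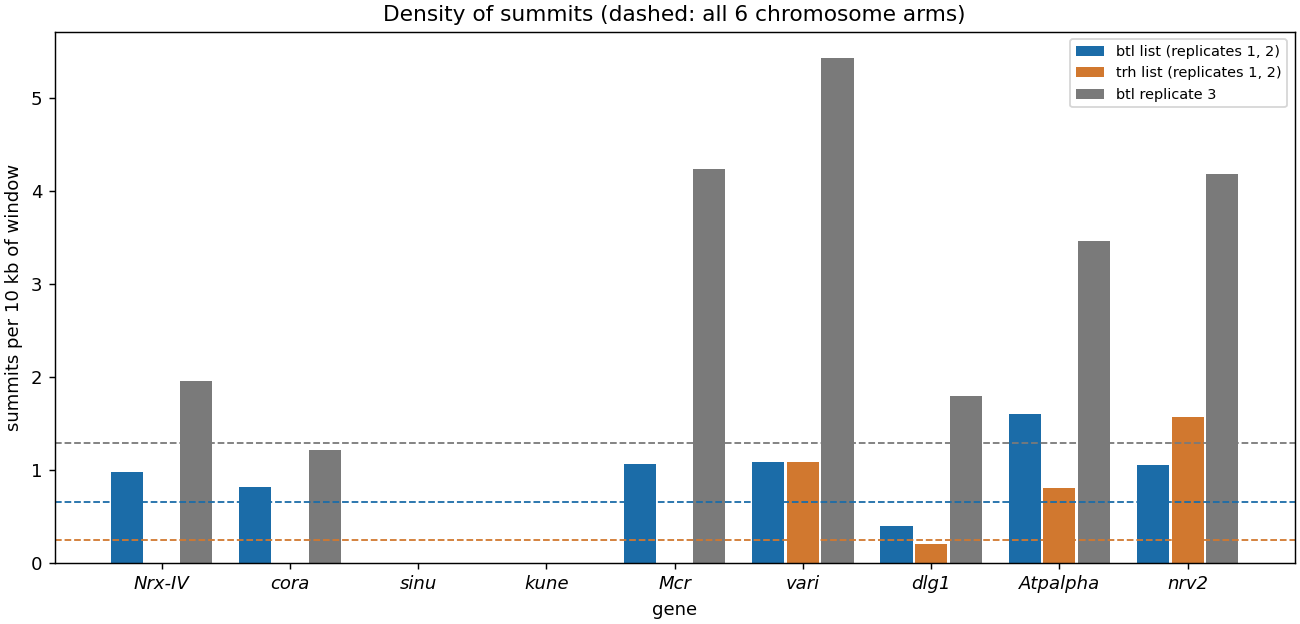
Summits per 10 kb of window (gene body and 5000 bp on each side) for each gene, with 1 bar per list, and dashed lines for the density over the 6 chromosome arms in the colour of the list. sinu and kune have no bar, vari has the highest replicate 3 density (5.44 per 10 kb), and dlg1 lies below the arm density in the btl list (0.399 per 10 kb) and in the trh list (0.200 per 10 kb).

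By fold enrichment, the summits were of ordinary strength for their lists. Strength is the authors' fold enrichment over background at the summit, which belongs to each peak and was ranked only within its own list. The median at the junction genes was 2.77 in the btl list, against 2.87 over the whole list, with a range from 1.66 to 4.44. In the trh list the median was 2.21 against 2.16, with a range from 1.75 to 2.97. In replicate 3 it was 2.17 against 2.39, with a range from 1.42 to 5.38. None of the 18 btl summits and none of the 9 trh summits was in the upper 10% of its list by fold enrichment, and 5 of 55 were in replicate 3. The btl ranks depend on the measure. Ranked by −log10 q, the strongest btl summits of the genes had a median percentile of 81.0, against 55.0 by fold enrichment, and Mcr reached 91.1. These medians take only the strongest summit of each gene. Over all 18 btl summits the median percentile by fold enrichment was 46.2, and the −log10 q percentiles ran from 2.36 to 91.1. The highest of the latter were 6.58 at Nrx-IV, 26.7 at dlg1 and 46.5 at Atpalpha, and from 81.0 to 91.1 at cora, Mcr, vari and nrv2.

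**Figure D2:**
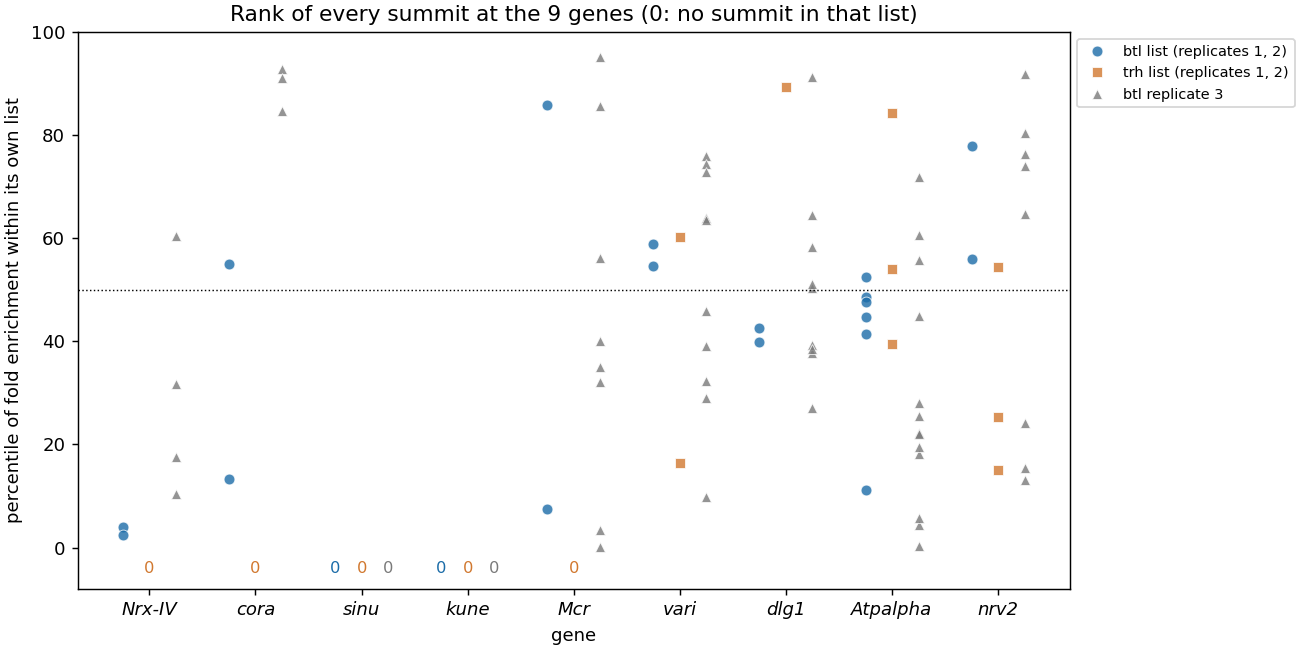
Percentile of each summit's fold enrichment within its own list, by gene and list, where 100 is the strongest peak of a list, the dotted line marks 50 and a 0 below the axis marks a gene with no summit in that list. The Nrx-IV summits of the btl list lie at the bottom of their list (percentiles 2.52 and 4.06), and the highest percentiles are those of Mcr (95.2) and cora (92.8) in replicate 3.

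The core of the complex was examined first. Nrx-IV (Dmel_CG6827, chromosome 3L, 12146519 to 12156990) encodes a neurexin-family transmembrane protein of the septa. Its btl summits were at 12147119, inside the gene and 600 bp from its lower end, with a fold enrichment of 1.66 (rank 8475 of 8693), and at 12145946, with 1.73 (rank 8341). The latter lay 573 bp outside Nrx-IV and inside eIF3l, which encodes a translation initiation factor subunit. Both lay among the weakest peaks of the btl list. Replicate 3 had summits at 12145956, 12146408 and 12146889 in a region across the same gene end, with fold enrichments of 2.03, 1.71 and 1.82. The trh list had no summit at Nrx-IV.

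A stronger region lay at the other side of Nrx-IV, at the edge of the 5000 bp window and inside CG9760. In replicate 3 this region had a summit 4404 bp from the gene, with a fold enrichment of 2.67, and a stronger one just outside the window, at 5515 bp, with 4.14 (percentile 87.3). The btl and trh summits of overlapping regions also fell just outside the window, at 5447 and 5529 bp. The btl summit had a fold enrichment of 4.29 (percentile 84.1) and the trh summit 3.72 (percentile 98.0). A highest-confidence region there began 4997 bp from Nrx-IV, so its assignment to Nrx-IV rests on the window.

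cora (Dmel_CG11949, chromosome 2R, 19229063 to 19243751) encodes a FERM-domain protein of the protein 4.1 family that binds the cytoplasmic tail of Nrx-IV. Its btl summits were 73 bp inside the lower end, with a fold enrichment of 2.04 (percentile 13.2), and 2014 bp inside, with 2.99 (percentile 55.0). Replicate 3 had a region of 3206 bp across both places, with summits 183, 562 and 1905 bp inside and fold enrichments of 4.85, 4.58 and 3.90. These had percentiles of 92.8, 91.1 and 84.7, so the order of strength along the gene was opposite in the btl list and in replicate 3. The trh list had no summit at cora, and its nearest was 23148 bp from a btl summit there. All cora summits lay inside cora and in no other protein-coding gene.

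vari (Dmel_CG9326, chromosome 2L, 20788662 to 20797042) encodes a scaffold protein of the MAGUK family that also binds Nrx-IV. It had summits under both drivers, but no btl region overlapped a trh region. The btl summits were at 20794843 inside vari, with a fold enrichment of 3.10 (percentile 58.8), and at 20800648, with 2.98 (percentile 54.6), which is 3606 bp outside vari and inside CG9328. The trh summits were at 20794123, with 1.76 (percentile 16.4), and at 20796981, with 2.29 (percentile 60.2), both inside vari and the latter 61 bp from its higher end. The closest btl and trh summits were 720 bp apart. Replicate 3 had 10 summits in 6 regions from 20793326 to 20800698, and its regions overlapped each of the btl and trh regions. The summit of replicate 3 closest to each btl summit was 49 and 50 bp away, and that closest to each trh summit 244 and 138 bp away.

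The claudins had no summit in any list. sinu (Dmel_CG10624, chromosome 3L, 5559470 to 5561598) and kune (Dmel_CG1298, chromosome 2R, 5671741 to 5672800) encode claudin-like proteins with 4 membrane spans that are needed for the barrier. They are the shortest of the 9 genes, at 2.13 and 1.06 kb. Of all protein-coding genes, 26.8% had no summit in any of the 3 lists, and of the 6869 genes no longer than sinu it was 36.9%. The nearest summits to kune were 7272 bp away in replicate 3, 7324 bp in the trh list and 7329 bp in the btl list, and the btl summit had a fold enrichment of 4.69 (percentile 88.3). At sinu the nearest summit within 10000 bp was 8451 bp away, in replicate 3, with a fold enrichment of 2.01.

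Mcr (Dmel_CG7586, chromosome 2L, 8074117 to 8082982) encodes a relative of the thioester-containing proteins that is part of the junction. It had summits on both sides but none in the gene itself. The btl summit at 8071502, with a fold enrichment of 4.44 (percentile 85.8), was the strongest btl summit at any of the 9 genes, and lay 2615 bp outside Mcr inside poe. Replicate 3 had a summit 101 bp from it, with 3.98 (percentile 85.6). On the other side, the btl summit at 8083679 was 697 bp outside Mcr inside Bsg, with 1.87 (percentile 7.48), and the replicate 3 summit 77 bp from it had 5.38 (percentile 95.2). Replicate 3 had 6 further summits inside Bsg within the window, from 1.42 to 2.55. Another gene was closer than Mcr to every summit counted at Mcr, and the trh list had none.

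dlg1 (Dmel_CG1725, chromosome X, 11369665 to 11409776) encodes a MAGUK scaffold that acts with Scribble and Lgl in basolateral polarity and is needed for septate junctions. Apart from a pair of replicate 3 summits near its lower end, its summits gathered in the middle of a gene of 40.1 kb. The trh summit, 19243 bp from the lower end, had a fold enrichment of 2.97 and rank 342 of 3210, the highest trh percentile at the 9 genes (89.4). It overlapped no region of the btl list or replicate 3. The btl summits, 21765 and 23457 bp from the lower end, had 2.69 (percentile 42.7) and 2.62 (percentile 39.9). Replicate 3 had summits 89 bp and 2 bp from these, with 2.80 and 2.40, and its strongest there, 20527 bp from the lower end, had 4.61 (percentile 91.3). The strongest replicate 3 summit therefore lay between the trh and the btl summits, 1284 bp from the trh summit and 1238 bp from the nearer btl summit.

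The sodium pump genes held 3 of the sites that all lists shared. Atpalpha (Dmel_CG5670, chromosome 3R, 20948714 to 20976239) encodes the catalytic subunit of the Na,K-ATPase, which in flies also has a role in the junction that does not need ion transport. It had 6 btl, 3 trh and 13 replicate 3 summits. In the btl list these lay 508 bp outside the lower end and 266, 3068, 11222, 12376 and 26701 bp inside it, with fold enrichments of 2.66, 1.98, 2.84, 2.93, 2.74 and 2.81. Apart from the summit at 266 bp they were within a narrow range, at percentiles from 41.5 to 52.6. The trh summits lay 8428, 9089 and 26715 bp inside, with 2.21, 2.03 and 2.76. The btl list and replicate 3 had no region overlapping the first pair of these.

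The site near the higher end of Atpalpha was common to the lists. The btl, trh and replicate 3 summits were at 20975415, 20975429 and 20975451, which is 824, 810 and 788 bp inside that end. Their fold enrichments were 2.81 (percentile 47.7), 2.76 (percentile 84.3) and 1.93 (percentile 25.6). A highest-confidence region of 310 bp (20975311 to 20975620), with the same coordinates as the replicate 3 region, covers it. No other gene of the annotation contains it.

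nrv2 (Dmel_CG9261, chromosome 2L, 6789770 to 6798862) encodes a beta subunit of the same pump and is needed in the junction with Atpalpha. It had 2 btl, 3 trh and 8 replicate 3 summits. A site inside the gene was found in all lists, with btl, trh and replicate 3 summits at 6792177, 6792209 and 6792114, between 2344 and 2439 bp from the lower end. Their fold enrichments were 3.88 (percentile 77.9), 2.22 (percentile 54.5) and 2.81 (percentile 64.8). Replicate 3 had another region next to it, with summits 3163, 4265 and 4700 bp inside the gene and 1.92, 3.20 and 3.58, which no btl or trh region overlapped.

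The other shared site of nrv2 lay between it and nrv1, which encodes another beta subunit, and was closer to nrv1. The btl summit at 6787603 had a fold enrichment of 3.02 (percentile 56.0) and the replicate 3 summit at 6787616 had 4.69 (percentile 91.8). The trh list had a summit at 6787876 with 1.87 (percentile 25.3) and another at 6786845, inside nrv1, with 1.75 (percentile 15.0). The btl region there, from 6786525 to 6788143, covers both trh regions. The highest-confidence list held 3 regions at nrv2, of which 1 was inside the gene.

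**Figure D3:**
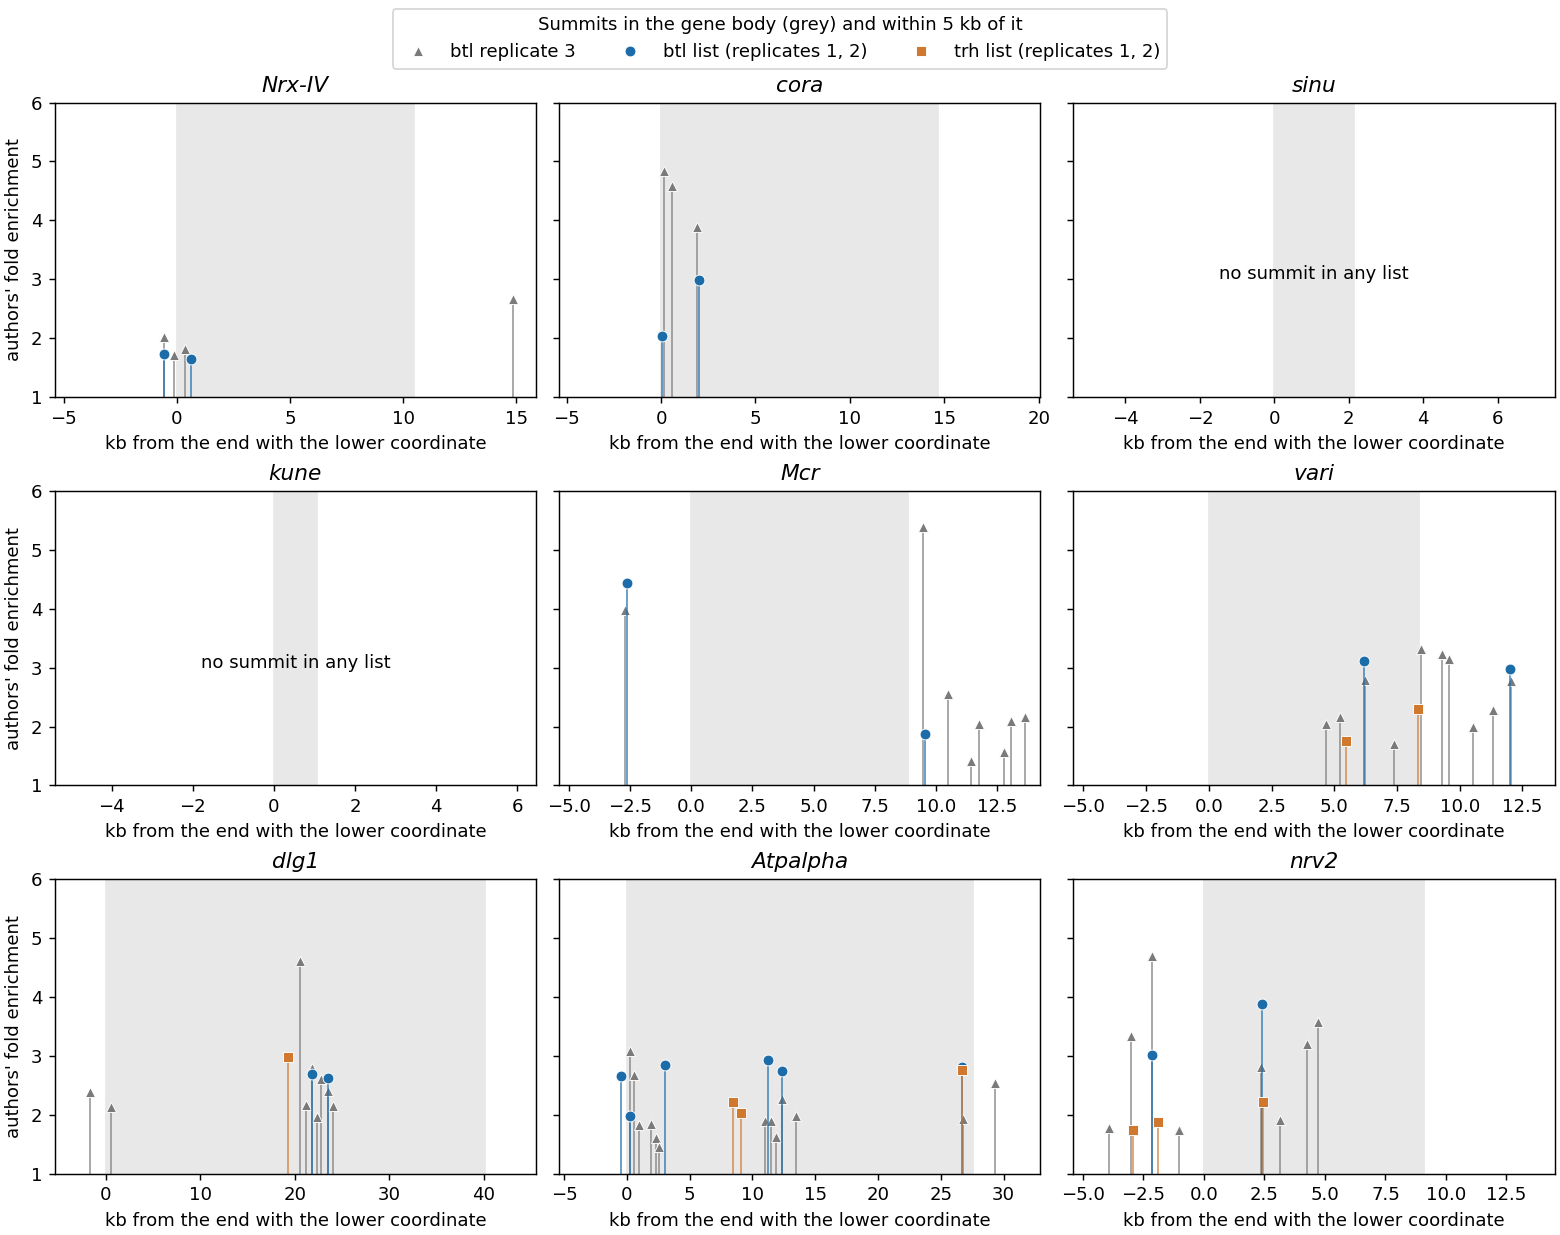
Summits at each gene, with distance from the gene's end of lower coordinate (kb) on the x axis, the authors' fold enrichment on the y axis (starting at 1), the gene body in grey and a marker for each list. The btl, trh and replicate 3 markers stand together from 26701 to 26737 bp in Atpalpha and from 2344 to 2439 bp in nrv2, while in vari and dlg1 the trh markers stand apart from the btl markers.

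The comparison of the drivers used the btl and trh lists, which share a library kit and a sequencing centre. At the junction genes 3 of 18 btl regions overlapped a trh region (16.7%, Wilson 95% interval 5.84 to 39.2%), against 25.2% in the whole btl list. In the other direction 4 of 9 trh regions overlapped a btl region (44.4%, interval 18.9 to 73.3%), against 75.2% in the whole trh list. Of the trh regions, 3 of 9 overlapped neither other list, 1 at dlg1 and 2 at Atpalpha (33.3%, interval 12.1 to 64.6%), against 12.5% of all trh regions. The intervals cover counting error only, and regions of the same gene are not independent. Of the 4 genes with summits under both drivers, Atpalpha and nrv2 had a region shared by the drivers, while vari and dlg1 had none. The strongest summit had percentiles of 58.8 in the btl and 60.2 in the trh list at vari, 42.7 and 89.4 at dlg1, 52.6 and 84.3 at Atpalpha, and 77.9 and 54.5 at nrv2. These ranks are within lists of different lengths and can show neither a change of binding nor its absence.

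The btl list and replicate 3 shared most of their sites at these genes. Of the 18 btl regions, 17 overlapped a replicate 3 region (94.4%, interval 74.2 to 99.0%), against 80.4% in the whole list, and the exception was the region 508 bp outside Atpalpha. With a reciprocal overlap of 50% the share was 44.4%, against 51.0% in the whole list, and the replicate 3 regions at the junction genes were wider (median 1178 bp) than the btl regions (644.5 bp). Of the 29 replicate 3 regions, 18 overlapped a btl region (62.1%, interval 44.0 to 77.3%), against 62.3%, and 6 overlapped a trh region (20.7%, interval 9.85 to 38.4%), against 20.7%. Of the trh regions, 6 of 9 overlapped replicate 3 (66.7%, interval 35.4 to 87.9%), against 80.5%.

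**Figure D4:**
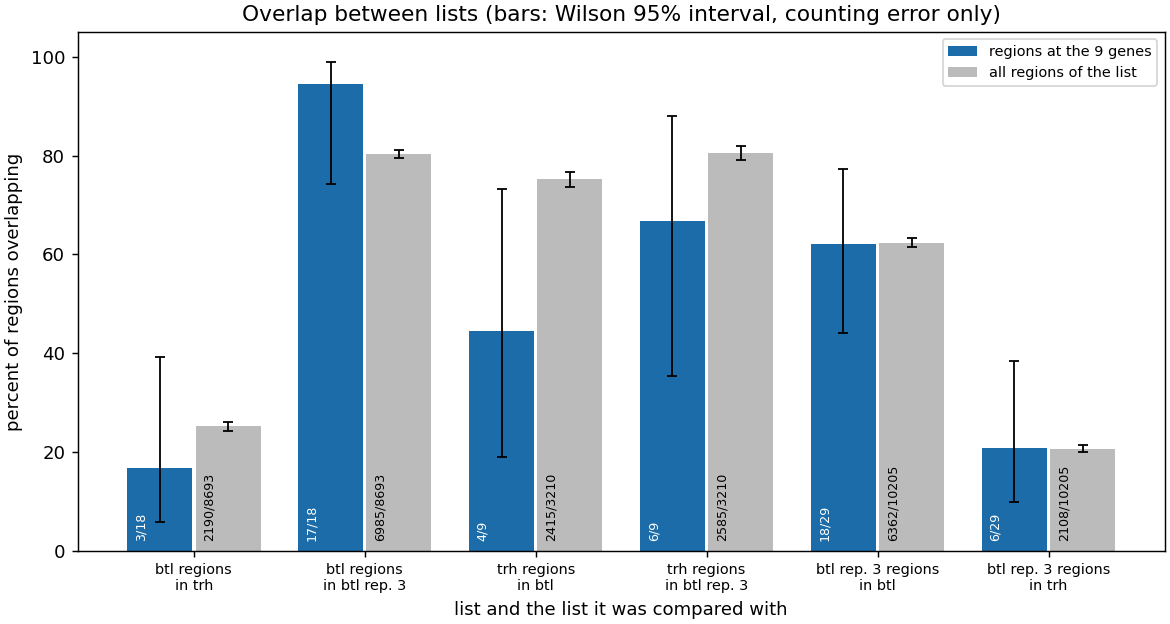
Percent of the regions of a list that overlap a region of another list by at least 1 bp, for regions with a summit at the 9 genes (blue) and for the whole list (grey), with Wilson 95% intervals for counting error and the counts inside the bars. The largest gap is that of the trh regions found in the btl list, 44.4% at the junction genes against 75.2%.

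With overlapping regions of the 3 lists joined, the 9 genes held 31 sites. Counting also overlapping regions whose summits lay beyond the window, 4 sites were found in all 3 lists, 12 in the btl list and replicate 3, 2 in the trh list and replicate 3, 9 in replicate 3 alone, 3 in the trh list alone and 1 in the btl list alone. The 4 sites in all lists were 1 at Atpalpha, 2 at nrv2 and the site at the far edge of the Nrx-IV window. The highest-confidence list touched the same 3 genes, as it did 21.3% of all protein-coding genes. Its regions at Nrx-IV and nrv2 have exactly the coordinates of trh regions, and its region at Atpalpha has those of the replicate 3 region. That list is therefore no independent support for the shared sites.

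With gene ends taken as 500 bp, most summits lay inside the genes and away from their ends, as did most of the window length. In the btl list 10 of 18 summits (55.6%, interval 33.7 to 75.4%) were inside a gene and more than 500 bp from its ends, 2 were within 500 bp of an end (11.1%, interval 3.10 to 32.8%) and 6 were elsewhere in the flanks. In the trh list 6 of 9 were inside, 1 was at an end and 2 were in the flanks, and in replicate 3 the counts were 29, 5 and 21 of 55. By length, 53.4% of the windows was inside, 8.49% at the ends and 38.1% in the flanks. The inside shares of the btl list (55.6%) and replicate 3 (52.7%) were thus close to the share of length. The trh shares, of 9 summits, were 66.7% inside and 22.2% in the flanks, with intervals of 35.4 to 87.9% and 6.32 to 54.7%. The part of gene length in these shares was not tested. Over the windows of all protein-coding genes, 21.4% of btl summits, 18.5% of trh summits and 17.5% of replicate 3 summits were at an end, where the ends made up 11.5% of the window length. Elsewhere inside a gene were 27.1% of btl, 30.7% of trh and 30.4% of replicate 3 summits, and 35.3% of that length. The shares at the 9 genes depend on the 500 bp limit. With gene ends of 1000 bp, 44.4% of btl, 55.6% of trh and 43.6% of replicate 3 summits were inside, and 49.6% of the window length. At an end were then 38.9% of btl, 22.2% of trh and 23.6% of replicate 3 summits. Over all protein-coding genes these end shares were 29.8%, 28.0% and 27.7%. The strand of the genes was not in the table used, so start and stop were not told apart.

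Many summits could equally be counted to a neighbouring gene. Another gene was closer than the junction gene to 5 of 18 btl, 2 of 9 trh and 20 of 55 replicate 3 summits. Within the gene bodies alone, 6 of the 9 genes had a btl summit, where 21.7% of all protein-coding genes did, 4 had a trh summit (all genes, 9.97%) and 6 had a replicate 3 summit (all genes, 28.3%). Mcr is the gene that dropped out, and these shares of all genes are again those of much shorter genes.

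Other genes of septate junctions were taken from a list of 26 symbols, of which 25 were found in the annotation. A btl summit within 5000 bp was present at 20 of 25 (80.0%, all protein-coding genes 60.9%), a trh summit at 12 (48.0%, all genes 29.1%) and a replicate 3 summit at 24 (96.0%, all genes 65.7%). Their median length was 4.90 kb, against 2.16 kb for all genes. Inside the genes alone, 11 of the 25 had a btl summit (44.0%, all genes 21.7%). A trh summit was inside 7 (28.0%, all genes 9.97%) and a replicate 3 summit inside 13 (52.0%, all genes 28.3%). Some of the strongest btl summits lay outside the gene and closer to another. nrv1 is among the 25, and its strongest summit in each list was also counted at nrv2. The 5 with the highest btl percentile were scrib, Fas3, Nrg, Lac and M6, and none of the 25 lacked a summit in all lists. At scrib, a basolateral polarity gene, the strongest btl, trh and replicate 3 summits had fold enrichments of 6.60, 2.82 and 5.09 (percentiles 97.7, 85.6 and 94.0). At Fas3, which encodes an adhesion protein, they were 6.58, 2.69 and 4.98 (percentiles 97.6, 81.4 and 93.4). At Nrg, the fly L1-type adhesion protein and a junction component, they were 6.19, 2.23 and 5.95. Lac, an immunoglobulin-domain junction protein, had 6.08 in the btl list and no trh summit, and its strongest replicate 3 summit (4.67) lay outside it, closer to dgt5. The strongest btl summit counted to M6, a gene of tricellular junctions, had 5.21 but lay 3561 bp outside it, closer to Cdk12. scrib, Fas3 and Nrg span 67.7, 73.3 and 37.8 kb and had 10, 10 and 5 btl summits, so each strongest value is the highest of several.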

How the data were processed

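Peaks were taken from 4 deposited lists that have no header line. The submitters' processing notes name dm6, Bowtie2 (2.3.4.3 and 2.3.4.1), SAMtools, Picard, MACS2 2.2.4 and bedtools, without roles. The names that the labels give the btl and trh lists hold a threshold of 0.1 on the irreproducible discovery rate. By the layout, the deposited columns hold the authors' score, fold enrichment (a ratio on a linear scale) and −log10 q of each peak. The deposited score ran from 415 to 1000 in the btl and trh lists and in replicate 3 equalled the −log10 q times 10 with its decimals dropped. Depth is unknown from such files.

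Scripts (Python 3.11.15, pandas 2.3.3, scipy 1.17.1), tested on simulated regions, counted summits in each gene body and 5000 bp around it, with gene positions from RefSeq Release 6. The 6 replicate 3 regions off the 6 arms were left out. A percentile is the share of a list's summits with no higher fold enrichment, and rank 1 is the strongest. Arm length was taken as the last gene end per arm. Overlap was at least 1 bp between regions. Coordinates count from 1. All 9 genes are named, and of the other junction genes the 5 with the highest btl percentile and any without a summit. The genes and lists were chosen with earlier results of these data known. No test was made, since each list gives 1 value per peak. The replicates come from separate embryo collections per the labels. Alternatives changed the window, the list threshold, the ranking, the overlap rule, the gene-end distance and the assignment to the nearest gene.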

Additional observations from a re-analysis of the deposited data

How the results depend on the processing

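Of 91 alternative values for the main results, 68 met a loose rule: counts within 1.5 times of the main value, shares within its Wilson interval and percentiles equal to it. The intervals are wide at such small counts, so large changes of a share met the rule. Among these, the share of trh regions in btl went from 44.4% to 22.2% with a reciprocal overlap of 50%. The btl share at an end went from 11.1% to 5.56% (ends of 250 bp), and that in the flanks from 33.3% to 16.7% (1000 bp). Genes with a trh summit went from 4 to 6 (window of 10000 bp). The number of genes with a summit fell from 7 to 4 in the upper 50% of the btl list by −log10 q, and from 7 to 2 (btl) and from 7 to 4 (replicate 3) when the lists were shortened to the size of the trh list. Summit counts became 31 (btl, window of 10000 bp) and, in replicate 3, 32 (gene bodies alone), 27 (strongest summit of each region) and 35 (junction gene nearest). The median percentile of the strongest summits moved from 55.0 to 81.0 (btl), 72.3 to 73.9 (trh) and 91.3 to 87.2 (replicate 3) when ranked by −log10 q, and to 53.8 (btl) and 76.2 (replicate 3) in gene bodies alone. Requiring a reciprocal overlap of 50% gave 44.4% of btl and 11.1% of trh regions in replicate 3, and 31.0% and 3.45% of replicate 3 regions in btl and trh. With summits within 200 bp, 72.2% of btl and 33.3% of trh regions were found in replicate 3. With gene ends of 1000 bp, 38.9% of btl and 23.6% of replicate 3 summits were at an end. In gene bodies alone, 11, 7 and 13 of the other junction genes had a summit in the btl, trh and replicate 3 lists. The causes were not tested beyond what each construction implies. Ranked by −log10 q, 2 of the 4 genes with both drivers had the higher percentile in the trh list, against 3 by fold enrichment. Without btl replicate 3, the number of genes with a region shared by the lists was 2, as with it. An alternative added after seeing the data, leaving out summits inside another protein-coding gene, is among those counted. Replicates 1 and 2 could not be left out in turn, since their lists are pooled. No paired analysis was possible because the lists hold no values per replicate.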

Other observations

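Other junction genes are described here in whole groups by role, outside the naming rule. The tricellular junction genes Gli, bark and M6 act where 3 cells meet, and each had a summit inside the gene in all 3 lists. Of all protein-coding genes, 21.7% had a btl summit inside, 9.97% a trh summit and 28.3% a replicate 3 summit. Gli, bark and M6 are longer, at 6.76, 15.6 and 4.90 kb, than the median of 2.16 kb for all genes, and the part of length was not tested. Their strongest btl fold enrichments were 3.50 at Gli, 4.12 at bark and 5.21 at M6 (the last outside the gene), and in the trh list they were 1.55, 2.36 and 2.39. The trh summit at Gli was thus near the bottom of its list, at percentile 3.93. The highest-confidence list had regions at 2 of these 3 genes, bark and M6, and at 21.3% of all protein-coding genes.

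The Ly6-family genes bou, crok, crim and cold, whose products are needed for junction assembly, are short, and 3 of the 4 had a btl summit within 5000 bp but none inside the gene. The btl shares of all protein-coding genes were 60.9% within 5000 bp and 21.7% inside. All 4 had a replicate 3 summit within 5000 bp (all genes, 65.7%), and 2 of them, bou and cold, had one inside (all genes, 28.3%). bou had 16 summits in replicate 3, of which 2 were inside. crim alone had trh summits, 2 in the window and none inside (all genes, 29.1% and 9.97%), and 2 highest-confidence regions (all genes, 21.3%). cold had no btl or trh summit and 1 in replicate 3, with a fold enrichment of 2.73 inside the gene. The third claudin gene, pck (1.66 kb), had no btl or trh summit either, and its summit in replicate 3 was 3844 bp away with 2.21. None of the 3 claudin genes thus had a btl or trh summit within 5000 bp, where 60.9% and 29.1% of all protein-coding genes did. All 3 are shorter than the median of 2.16 kb for all genes. Of the smooth septate junction genes Tsp2A, Ssk, mesh and hoka, which act in the gut and the Malpighian tubules, mesh and hoka had a btl summit inside the gene, with 4.24 and 3.27, and none had a trh summit inside. Of all protein-coding genes, 21.7% had a btl summit inside and 9.97% a trh summit. Replicate 3, also a btl sample, had no summit inside mesh or within 5000 bp of hoka. Its summit at mesh lay 1284 bp outside the gene, with 2.80.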
